A study of Mus musculus with 8 samples.

Results

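The 32 genes described here encode the enzymes, transporters and cofactors of ceramide and acylceramide formation in the epidermis. They were chosen by name, for their pathway place and with earlier results of these data known, from 54838 genes in the count tables. All 32 were among the 17839 genes with enough counts to be tested. RNA was sequenced from mouse skin epidermis isolated with trypsin, in 4 groups of 2 biological replicates. The groups were Ovol1/2 iDKO and control at 25 DPI, and Ovol1/2 iDKO and control at 52 DPI, where iDKO and DPI are kept as in the sample names. The Ovol genes code for transcription factors with zinc fingers that act in epithelial cells. The sources used here do not give the modified alleles, the driver and agent of any induction, the sex, the age or any pooling of animals.

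Ceramides are built from a sphingoid base and a fatty acid, and in the uppermost living layer of the epidermis the fatty acid is elongated to an ultra-long chain, hydroxylated at its far end and esterified with linoleate to form acylceramide. Acylceramides are stored as glucosylceramides in lamellar granules, secreted, cut free again and, after oxidation of their linoleate, bound to proteins of the cornified envelope. This lipid layer limits the loss of water through the skin, and loss of function of many of these genes causes ichthyosis in humans or a lethal barrier defect in mice.

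The labels of the iDKO libraries were not borne out by lower counts of the targeted genes. Ovol1 was at 148 and 204 CPM (counts scaled to a common library size) in replicates 1 and 2 labelled iDKO and at 135 and 36.3 CPM in control at 25 DPI. The later time had Ovol1 at 99.0 and 193 CPM in the iDKO-labelled libraries and 62.7 and 157 CPM in control. Ovol2 was at 44.6 and 16.7 CPM against 24.9 and 11.6 CPM in control at 25 DPI, and at 22.3 and 9.16 CPM against 21.3 and 7.52 CPM in control at 52 DPI. Both genes were thus higher in the library labelled iDKO in each of the 4 pairs of the same time and replicate number, neither passed the test, and a gene-level count cannot reveal an exon that is missing. The libraries are therefore named by their labels throughout.

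The libraries held 9824307 to 50711381 counts. Replicate numbers separated the libraries: the second strand held 49.8% to 50.0% of the stranded counts in replicate 1 and 95.4% to 95.7% in replicate 2, so the libraries are also compared in 4 pairs, each of 1 iDKO-labelled and 1 control library that share time and number. Basal keratinocyte markers summed to 26305 to 51648 CPM, whereas the 12 markers of granular and cornified keratinocytes, the cells in which most of the 32 genes act, summed to 125 to 621 CPM and Flg (filaggrin) lay at 0.0993 to 0.907 CPM. Markers of other cells set 2 libraries apart. Control replicate 1 at 25 DPI had T cell, melanocyte and erythroid sums of 749.6, 367 and 111 CPM, against 110.2, 40.9 and 1.19 CPM in control replicate 2. The iDKO-labelled replicate 2 at 52 DPI had a hair shaft and inner root sheath sum of 184 CPM against 11.5 to 20.4 CPM in the other libraries. Adipocyte markers summed to 0 to 5.82 CPM. In bulk RNA, fewer cells of a type and less RNA per cell cannot be told apart.

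Genes of the linoleate oxidation step, the acylceramide gene Pnpla1 and the lipase gene Lipn had higher means in the iDKO-labelled libraries at both times, whereas the sphingoid base synthase subunit Sptlc3 had lower ones. None of these differences passed the test. By edgeR's quasi-likelihood test 0 of the 32 genes were called at 25 DPI, at 52 DPI or across both times (an adjusted p under 0.05), as were 0.0% of all tested genes in each, and DESeq2 called 0 of the 32, against 0.0112%, 0.00561% and 0.0448% of all tested genes. With the replicate number as a block, DESeq2 again called 0 of the 32, against 0.577%, 0.196% and 0.409%, and edgeR called 0, against 0.0%, 0.0% and 0.00561%. At an unadjusted p under 0.05 edgeR had 1 of the 32 higher at 25 DPI, Alox12b, and 0 lower, against 0.247% of all tested genes higher and 0.174% lower. At 52 DPI it had 0 higher and 0 lower, against 0.734% and 0.0673%. Across both times it had 1 higher, Pnpla1, and 0 lower, against 0.594% and 0.135%. With the replicate number as a block within each time, 3 of the 32 were higher at an unadjusted p under 0.05 at 25 DPI (Alox12b, Elovl4 and Sdr9c7) against 4.86% of all tested genes, and 0 lower against 1.65%. At 52 DPI 2 were higher (Ephx3 and Pnpla1) against 2.99% and 1 lower (Sptlc3) against 1.29%. Across both times 4 were higher with that block (Alox12b, Ephx3, Pnpla1 and Sdr9c7) against 2.9%, and 1 lower (Sptlc3) against 1.13%.

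Counted by direction alone, 21 of the 32 genes were higher and 11 lower in the iDKO-labelled libraries at 25 DPI, with a median log2 fold change of 0.22, and 47.5% of all tested genes were higher, with a median of -0.03. At 52 DPI 22 were higher and 10 lower with a median of 0.13, and 48.4% of all tested genes were higher, with a median of -0.01. These counts moved with single libraries. Without iDKO-labelled replicate 2 at 52 DPI 16 genes were higher and 16 lower at that time, with a median of -0.0035, and without iDKO-labelled replicate 1 there were 18 and 14, with a median of 0.11. Leaving out control replicate 1 or 2 at 52 DPI gave 19 and 13 with a median of 0.05, or 23 and 9 with a median of 0.42. At 25 DPI the counts were 18 and 14 without iDKO-labelled replicate 1 (median 0.10), 19 and 13 without iDKO-labelled replicate 2 (0.14) and 22 and 10 without control replicate 1 (0.35). In single pairs the median log2 ratio of the 32 genes was 0.19 and 0.23 at 25 DPI and 0.08 and 0.05 at 52 DPI. Both pairs were higher for 16 of the 32 at 25 DPI, against 25.5% of all tested genes, and both lower for 4, against 26.0%. At 52 DPI both were higher for 14, against 27.8%, and both lower for 8, against 30.4%. The 5 genes Cyp4f39, Ephx3, Lipn, Pnpla1 and Smpd1 were higher in the iDKO-labelled library of all 4 pairs (15.6% of the 32, against 6.73% of all tested genes), and Sptlc3 alone was lower in all 4 (3.12%, against 6.7%).

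**Figure D1:**
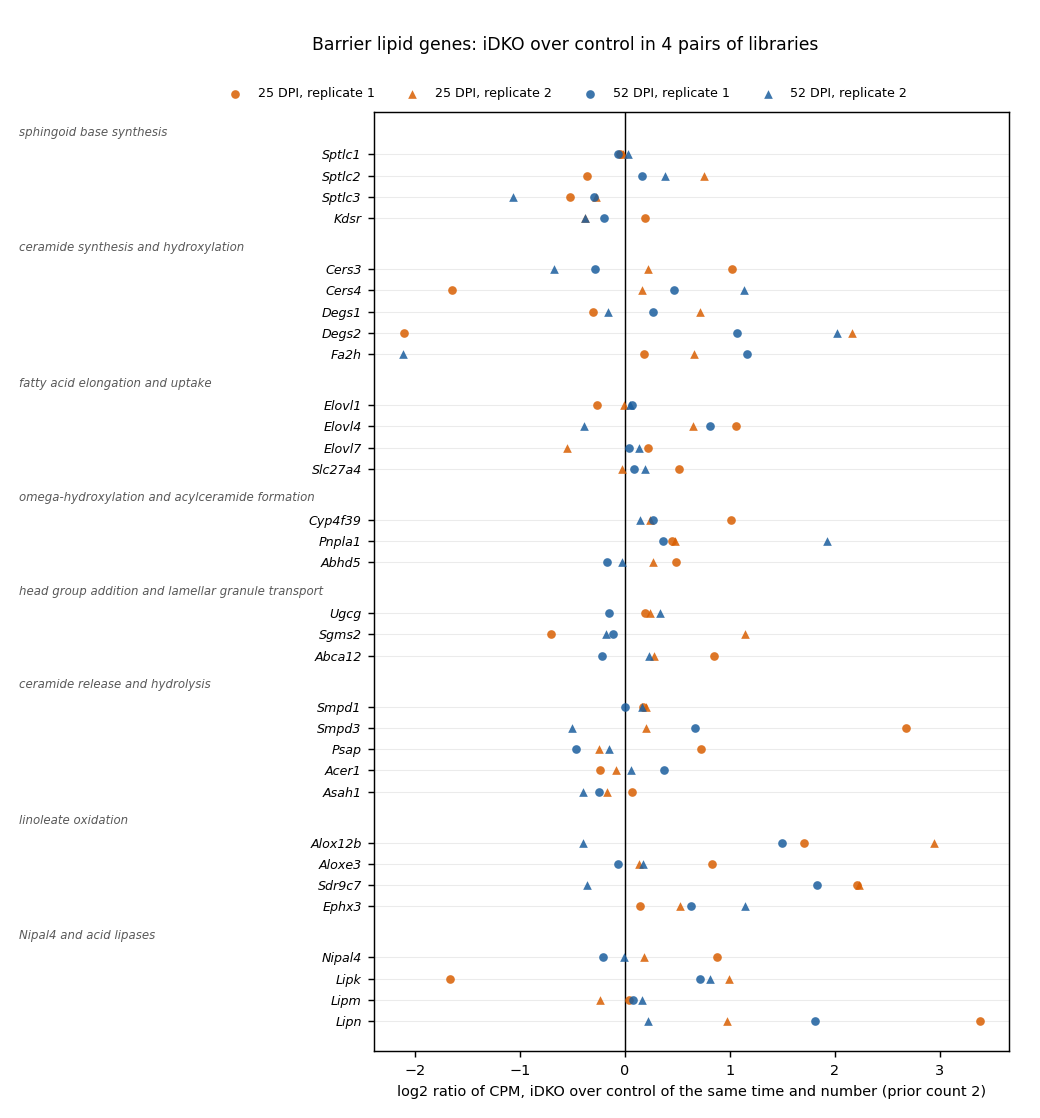
Log2 ratio of CPM of the 32 genes in the 4 pairs of libraries, iDKO over control of the same time and replicate number, grouped by pathway step. Points right of 0 are higher in the iDKO-labelled library; Alox12b and Sdr9c7 lie at 1.70 to 2.94 and 2.21 to 2.23 in the 25 DPI pairs, while Sptlc1 lies close to 0 in all 4.

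The plot of pair ratios shows that the points of 1 gene often lay on both sides of 0. For 9 of the 32 genes all 4 ratios lay within 0.5 log2 units of 0 (28.1%, against 25.7% of all tested genes), namely Abhd5, Acer1, Asah1, Elovl1, Kdsr, Lipm, Smpd1, Sptlc1 and Ugcg. At 25 DPI 6 genes had both iDKO-labelled libraries above both control libraries (Abhd5, Alox12b, Lipn, Nipal4, Pnpla1 and Sdr9c7; 5.39% of all tested genes), and 0 had both below (5.15%). At 52 DPI 6 genes lay above (Degs2, Elovl7, Ephx3, Lipk, Lipn and Pnpla1; 11.9% of all tested genes) and Sptlc3 lay below (10.2%). Over both times only Pnpla1 among the 32 had its 4 iDKO-labelled libraries above all 4 control libraries, as did 0.471% of all tested genes.

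The promoters of 5 genes whose groups did not overlap at one time or both are printed as the 250 bases before the start that RefSeq gives on GRCm38, 5′ to 3′ on the gene's strand. For Alox12b, Sdr9c7 and Ephx3 that start lies inside the gene as GENCODE annotates it. Capitals mark a match to 1 of 4 motifs searched on both strands, CCGTTA (OVOL), CACCTG (ZEB), AACCGGTT (GRHL) and TGANTCA (AP-1). Alox12b is on chr11:69156989-69169792, plus strand (window chr11:69156822-69157071), Sdr9c7 on chr10:127898518-127911761, plus strand (window chr10:127898285-127898534) and Lipn on chr19:34067358-34084918, plus strand (window chr19:34067108-34067357). Pnpla1 is on chr17:28858411-28890309, plus strand (window chr17:28858161-28858410) and Ephx3 on chr17:32183770-32189549, minus strand (window chr17:32189471-32189720).
Alox12b: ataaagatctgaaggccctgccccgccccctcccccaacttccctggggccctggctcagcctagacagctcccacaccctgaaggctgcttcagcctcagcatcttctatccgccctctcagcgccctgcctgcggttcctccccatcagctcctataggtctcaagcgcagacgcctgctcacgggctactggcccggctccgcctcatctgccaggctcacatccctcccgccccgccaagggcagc
Sdr9c7: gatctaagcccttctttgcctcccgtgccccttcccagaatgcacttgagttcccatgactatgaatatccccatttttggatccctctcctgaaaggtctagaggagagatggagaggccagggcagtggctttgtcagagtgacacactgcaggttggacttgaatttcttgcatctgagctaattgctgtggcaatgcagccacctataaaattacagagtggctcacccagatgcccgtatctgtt
Lipn: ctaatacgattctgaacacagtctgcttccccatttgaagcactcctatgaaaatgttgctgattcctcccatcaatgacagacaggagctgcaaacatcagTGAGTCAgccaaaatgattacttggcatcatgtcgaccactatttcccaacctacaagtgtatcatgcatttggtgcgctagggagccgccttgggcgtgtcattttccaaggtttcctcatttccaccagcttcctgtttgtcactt
Pnpla1: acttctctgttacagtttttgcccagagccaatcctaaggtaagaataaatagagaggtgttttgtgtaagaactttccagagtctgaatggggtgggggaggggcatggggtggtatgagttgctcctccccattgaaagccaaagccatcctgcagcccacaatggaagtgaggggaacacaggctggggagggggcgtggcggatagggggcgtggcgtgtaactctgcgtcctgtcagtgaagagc
Ephx3: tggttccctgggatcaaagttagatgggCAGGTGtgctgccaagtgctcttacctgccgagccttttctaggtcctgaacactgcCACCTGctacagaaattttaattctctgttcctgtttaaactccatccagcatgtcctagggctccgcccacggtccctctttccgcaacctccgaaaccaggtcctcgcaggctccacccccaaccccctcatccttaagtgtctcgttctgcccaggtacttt

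RefSeq windows were found for 27 of the 32 genes, 34 windows in all, and the OVOL motif was in 0 of the 34 and in 2.18% of the 32851 windows of all genes. The ZEB motif, an E-box that shares no full match with the other motifs, was in 7 windows of 6 genes (Abca12, Elovl1, Elovl4, Elovl7, Ephx3 and Sgms2), and in 17.2% of all windows. Ephx3 held it at 222 and 165 bases before its start. The AP-1 motif was in 4 windows of 3 genes (Lipn, Psap and Sgms2), against 6.75% of all windows, and in Lipn it lay 148 bases before the start. The GRHL motif was in 0 of the 34 and in 0.116% of all windows. A match is a run of letters and not a site, and the absence of one speaks only of these letters in these windows.

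The first step, the joining of serine with a fatty acyl group to a sphingoid base, had 1 of 4 genes higher and 3 lower in the iDKO-labelled libraries at each time. Sptlc1, the subunit common to all forms of serine palmitoyltransferase, was at 55.7 and 51.0 CPM in the iDKO-labelled libraries and at 57.4 and 51.7 CPM in control at 25 DPI, and at 55.5 and 67.8 CPM against 58.0 and 66.4 CPM in control at 52 DPI. Its 4 pair ratios stayed within 0.25 log2 units of 0, as did those of Lipm and Smpd1 and of 5.43% of all tested genes. Sptlc3, the alternative catalytic subunit, was at 79.7 and 52.0 CPM in the iDKO-labelled libraries and at 115 and 62.9 CPM in control at 25 DPI. Its values at 52 DPI were 33.0 and 28.5 CPM in the iDKO-labelled libraries and 40.4 and 59.9 CPM in control, where the groups did not overlap. On the log2 scale Sptlc3 differed by -0.71 (SE 0.52) at 52 DPI, and by -0.38 without control replicate 2. The value at 25 DPI was -0.43 (SE 0.51), and 0.02 without control replicate 1. Sptlc2, the usual catalytic subunit, was at 44.6 and 62.7 CPM against 57.4 and 37.2 CPM in control at 25 DPI and at 41.3 and 63.8 CPM against 36.9 and 48.7 CPM in control at 52 DPI. It was lower in pair 1 and higher in pair 2 at 25 DPI and higher in both pairs at 52 DPI. Kdsr, which reduces the first product to sphinganine, lay at 32.8 to 66.6 CPM over the 8 libraries.

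Of the 5 genes that join the base to a fatty acid and modify the product, 3 were higher at 25 DPI and 4 at 52 DPI, and the log2 fold changes of all 5 at 25 DPI, and of Cers3, Degs1 and Fa2h at 52 DPI, changed sign when 1 library of that time was left out. Cers4, a ceramide synthase for long-chain fatty acids, was at 54.4 and 41.1 CPM in the iDKO-labelled libraries and at 170.1 and 36.6 CPM in control at 25 DPI, and at 24.4 and 59.8 CPM against 17.5 and 27.1 CPM in control at 52 DPI. The highest of the 8 values was that of control replicate 1 at 25 DPI, the library with high T cell, melanocyte and erythroid sums, whose part in the difference was not tested. The log2 fold change at 25 DPI was -1.11 (SE 0.79), and 0.34 without that library, and at 52 DPI it was 0.92 (SE 0.79), with 0.14 without iDKO-labelled replicate 2 and 1.42 without iDKO-labelled replicate 1. Degs2, which hydroxylates the base to phytosphingosine, was at 2.17 and 3.66 CPM against 9.61 and 0.754 CPM in control at 25 DPI. At 52 DPI Degs2 was at 8.70 and 7.26 CPM against 4.11 and 1.72 CPM in control, with no overlap. Its log2 fold change at 25 DPI was -0.81, and 1.93 without control replicate 1, the highest of the 4 libraries. Its exons overlap those of Evl on the other strand, where reads cannot be assigned without strand. In replicate 2 60.1% of its counts by strand lay on the second strand. The unstranded counts used here were closer to the second-strand ones, 272 against 250 over the replicate 2 libraries. In replicate 2 at 52 DPI they were 111 against 108 in the iDKO-labelled library and 22 against 22 in control.

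Cers3, the synthase for ultra-long acyl chains, was at 22.0 and 40.1 CPM in the iDKO-labelled libraries and 10.8 and 34.5 CPM in control at 25 DPI, higher in both pairs. Cers3 values at 52 DPI were 22.1 and 31.9 CPM against 26.8 and 50.7 CPM in control, lower in both. The fitted log2 fold change at 25 DPI was 0.46, but -0.17 without control replicate 1 and -0.02 without iDKO-labelled replicate 2. At 52 DPI it was -0.52, and 0.02 without control replicate 2. The difference between the effects at 52 and 25 DPI was -0.98 (SE 0.96) on the log2 scale and was not called by edgeR. Fa2h, which hydroxylates the fatty acid, was at 24.8 and 15.9 CPM against 21.8 and 10.1 CPM in control at 25 DPI and at 9.80 and 0.916 CPM against 4.34 and 4.23 CPM in control at 52 DPI. Its lowest value was that of iDKO-labelled replicate 2 at 52 DPI, the library with the high hair shaft and inner root sheath sum, and without iDKO-labelled replicate 1 the log2 fold change there was -2.22 in place of 0.33. Degs1, which inserts the double bond of sphingosine, was at 221 and 142 CPM against 272 and 86.6 CPM in control at 25 DPI and at 214 and 115 CPM against 177 and 129 CPM at 52 DPI. At each time it was higher in 1 pair and lower in the other.

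Of the 4 genes of fatty acid elongation and uptake, 2 were higher at 25 DPI and 4 at 52 DPI, with medians of 0.05 and 0.12 on the log2 scale. Elovl4, the elongase of ultra-long chains, was at 336 and 83.2 CPM in the iDKO-labelled libraries and 162 and 52.9 CPM in control at 25 DPI, and at 131 and 76.1 CPM against 74.2 and 99.7 CPM in control at 52 DPI. It was higher in 3 of the 4 pairs and lower in pair 2 at 52 DPI. Its log2 fold change at 25 DPI was 0.97 (SE 0.81), -0.28 without iDKO-labelled replicate 1, and 0.86 (SE 0.31) with the replicate block (edgeR, unadjusted p = 0.0312, adjusted p = 0.731). Elovl1, the elongase of saturated very long chains, differed between the groups by -0.18 at 25 DPI and 0.06 at 52 DPI. Elovl7, an elongase of shorter saturated chains, was at 83.9 and 86.3 CPM against 81.5 and 78.5 CPM in control at 52 DPI, apart but by a small margin, and at 113 and 62.6 CPM against 97.4 and 91.7 CPM at 25 DPI. Slc27a4, which takes up fatty acids and activates them, lay at 30.1 to 56.2 CPM over the 8 libraries, with log2 fold changes of 0.21 and 0.15.

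Pnpla1, the transacylase that moves linoleate onto the omega-hydroxyl group of ceramide, was at 11.7 and 13.4 CPM in the iDKO-labelled libraries and 8.56 and 9.55 CPM in control at 25 DPI. Its values at 52 DPI were 15.0 and 38.1 CPM in the iDKO-labelled libraries and 11.6 and 9.95 CPM in control. The groups did not overlap at either time, and the highest value was that of iDKO-labelled replicate 2 at 52 DPI, whose hair shaft and inner root sheath sum was also the highest. The part of those cells in the value was not tested. The means were 26.5 ± 16.3 CPM in the iDKO-labelled libraries and 10.8 ± 1.19 CPM in control at 52 DPI, and 12.6 ± 1.13 CPM against 9.06 ± 0.697 CPM at 25 DPI (SD, n = 2 each). The log2 fold change was 0.47 (SE 0.55) at 25 DPI. At 52 DPI Pnpla1 differed by 1.29 (SE 0.56), and by 0.48 without that library. Across both times it was 0.88 (SE 0.38) (edgeR, unadjusted p = 0.0474, adjusted p = 1.00). In replicate 2 the second-strand count of Pnpla1 was 1.23 times the unstranded count, and its exons overlap Pnpla1os on the other strand. With the second-strand counts the log2 fold change at 52 DPI was 1.33.

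Cyp4f39, which hydroxylates the far end of the ultra-long fatty acid, was at 37.5 and 17.3 CPM against 18.6 and 14.7 CPM in control at 25 DPI and at 17.5 and 19.8 CPM against 14.5 and 17.9 CPM in control at 52 DPI. It was higher in each of the 4 pairs, but the groups overlapped at both times. The fitted values were 0.72 (SE 0.51) on the log2 scale at 25 DPI and 0.20 (SE 0.51) at 52 DPI. They became 0.13 without iDKO-labelled replicate 1 at 25 DPI and 0.06 without control replicate 1 at 52 DPI. Abhd5, the cofactor of Pnpla1, was at 89.1 and 101 CPM against 63.4 and 83.8 CPM in control at 25 DPI, with no overlap, and at 73.5 and 69.9 CPM against 82.8 and 71.3 CPM in control at 52 DPI. At 52 DPI it was lower in both pairs, with log2 ratios of -0.17 and -0.03.

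**Figure D2:**
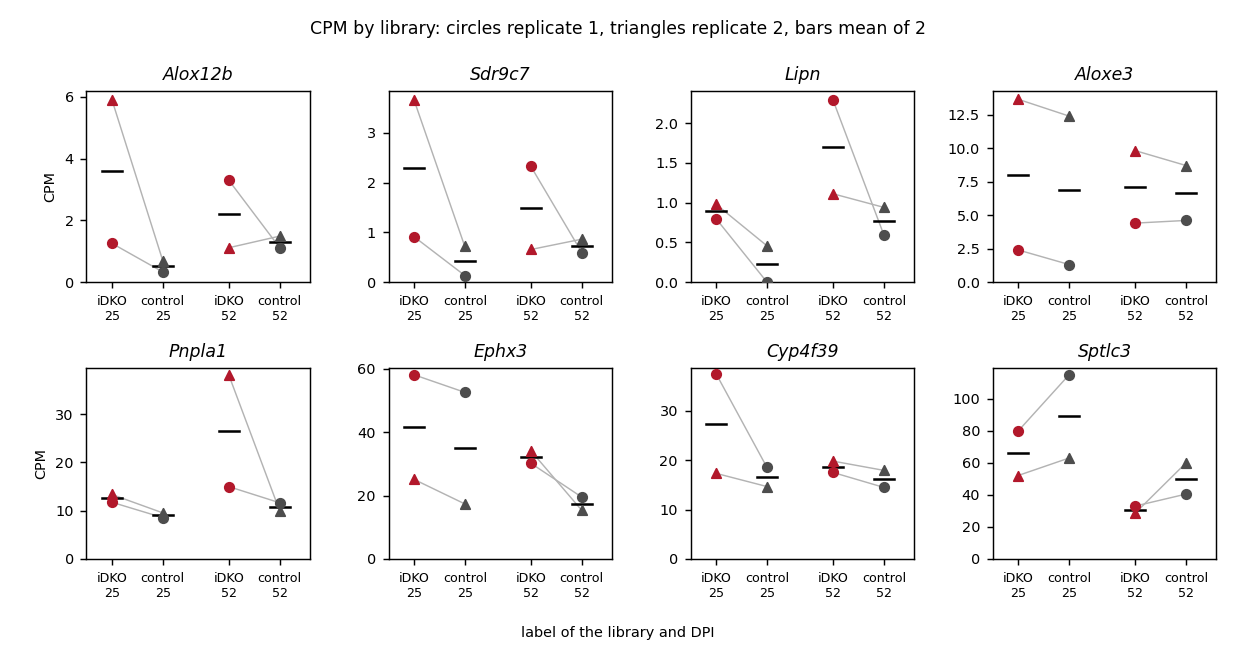
CPM of 8 genes in each library, iDKO-labelled libraries in red left of control in grey at 25 and at 52 DPI; circles are replicate 1, triangles replicate 2, thin lines join a pair and bars mark the mean of 2. Pnpla1 is apart at both times, Alox12b and Sdr9c7 at 25 DPI alone, and Aloxe3 follows the replicate number.

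Of the 3 genes of head group addition and lamellar granule transport, 3 were higher at 25 DPI and 2 at 52 DPI, with medians of 0.37 and 0.12. Abca12, the transporter that loads glucosylceramide into lamellar granules, was at 42.5 and 192 CPM in the iDKO-labelled libraries and 23.5 and 158 CPM in control at 25 DPI, and at 46.9 and 167 CPM against 54.6 and 142 CPM in control at 52 DPI. In each group replicate 2 was the higher, and the genotype log2 fold changes were 0.37 (SE 1.11) and 0.12 (SE 1.11). Ugcg, glucosylceramide synthase, was at 13.6 and 27.7 CPM against 11.8 and 23.4 CPM in control at 25 DPI and at 22.7 and 35.8 CPM against 25.2 and 28.3 CPM in control at 52 DPI. Sgms2, a sphingomyelin synthase, was at 12.7 and 52.0 CPM against 20.6 and 23.5 CPM in control at 25 DPI, with its highest value in iDKO-labelled replicate 2. Its log2 fold change there was 0.55, and -0.80 without that library. At 52 DPI Sgms2 was at 26.3 and 34.7 CPM against 28.5 and 39.3 CPM in control.

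Of the 5 genes that free and cut ceramides, 3 were higher at 25 DPI and 2 at 52 DPI, with medians of 0.06 and -0.25 on the log2 scale. These counts, and those over all 32 genes, include Smpd3, which cannot be read here. With the second-strand column for replicate 2, 31 of the 32 were tested. Of these, 20 were higher and 11 lower at 25 DPI, and 22 higher and 9 lower at 52 DPI. Smpd1, acid sphingomyelinase, was at 47.7 and 35.4 CPM against 42.2 and 30.8 CPM in control at 25 DPI and at 48.8 and 35.8 CPM against 48.7 and 31.9 CPM in control at 52 DPI, higher in all 4 pairs by at most 0.20 on the log2 scale. Psap, whose protein is cut into the saposins that assist glucocerebrosidase, was at 429 and 659.9 CPM against 259 and 783 CPM in control at 25 DPI and at 448 and 641 CPM against 618 and 709.9 CPM in control at 52 DPI. Its groups overlapped at both times, and it was lower in both pairs at 52 DPI, by log2 ratios of -0.46 and -0.15. Asah1, acid ceramidase, had log2 fold changes of -0.03 and -0.31. Acer1, the alkaline ceramidase of differentiated keratinocytes, was at 103 and 32.8 CPM against 122 and 34.7 CPM in control at 25 DPI and at 28.3 and 40.9 CPM against 21.8 and 39.3 CPM in control at 52 DPI. Its exons overlap the transcript AC073683.1 on the other strand, and in replicate 2 its second-strand count was 1.67 times the unstranded one. Smpd3, neutral sphingomyelinase, cannot be read from these counts: in replicate 2 only 1.94% of its counts by strand, 13 in all, lay on the second strand, where 30 of the 32 genes had at least 95%, and its exons overlap Prmt7 on the other strand.

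The linoleate oxidation step held the 2 largest fold changes of the 32 genes at 25 DPI, with 4 of 4 genes higher at each time and a median log2 fold change of 1.32 at 25 DPI and 0.83 at 52 DPI. Alox12b, the lipoxygenase that oxidises the linoleate of acylceramide, was at 1.25 and 5.91 CPM in the iDKO-labelled libraries and 0.327 and 0.695 CPM in control at 25 DPI. Alox12b values at 52 DPI were 3.30 and 1.11 CPM in the iDKO-labelled libraries and 1.11 and 1.49 CPM in control. The groups were apart at 25 DPI and overlapped at 52 DPI, where iDKO-labelled replicate 2 was below its control. The log2 fold change at 25 DPI was 2.78 (SE 1.05) (edgeR, unadjusted p = 0.0310, adjusted p = 1.00), and 1.27 without iDKO-labelled replicate 2. At 52 DPI it was 0.77 (SE 0.99), and -0.22 without iDKO-labelled replicate 1. Fitted with the block, Alox12b differed by 2.66 (SE 0.72) at 25 DPI (edgeR, unadjusted p = 0.00856, adjusted p = 0.645; DESeq2, adjusted p = 0.125).

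Sdr9c7, the dehydrogenase that turns the oxidised linoleate into an epoxy ketone, was highest in the same iDKO-labelled library as Alox12b at each time. It was at 0.912 and 3.66 CPM in the iDKO-labelled libraries and 0.131 and 0.715 CPM in control at 25 DPI, with no overlap. At 52 DPI Sdr9c7 was at 2.32 and 0.654 CPM against 0.593 and 0.862 CPM in control, with iDKO-labelled replicate 1 the highest and replicate 2 below its control. Its log2 fold change was 2.38 (SE 1.19) at 25 DPI and 1.05 (SE 1.16) at 52 DPI. Leaving out iDKO-labelled replicate 2 at 25 DPI gave 1.06, and leaving out iDKO-labelled replicate 1 at 52 DPI gave -0.15. Aloxe3, the partner lipoxygenase that isomerises the product of Alox12b, was at 2.40 and 13.6 CPM against 1.31 and 12.4 CPM in control at 25 DPI and at 4.40 and 9.81 CPM against 4.60 and 8.70 CPM in control at 52 DPI. Replicate 2 was the higher in each group, and the log2 fold changes were 0.23 (SE 1.14) and 0.10 (SE 1.15).

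Ephx3, an epoxide hydrolase of this step, was at 30.2 and 34.1 CPM in the iDKO-labelled libraries and 19.5 and 15.4 CPM in control at 52 DPI, where the groups did not overlap. At 25 DPI it was at 58.2 and 25.1 CPM against 52.6 and 17.4 CPM in control, where replicate 1 was the higher in both groups. Its log2 fold change at 52 DPI was 0.88 (SE 0.66), between 0.73 and 1.07 with 1 library of that time left out, and 0.89 (SE 0.24) with the replicate block (edgeR, unadjusted p = 0.00817, adjusted p = 1.00). At 25 DPI it was 0.25 (SE 0.65), and -0.39 without iDKO-labelled replicate 1.

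The markers of granular and cornified keratinocytes were also mostly higher in the iDKO-labelled libraries, though the pairs differed. Their part in this step was not tested. Of the 12 markers 9 were higher in the iDKO-labelled libraries at 25 DPI, with a median log2 fold change of 1.31, and 10 at 52 DPI, with a median of 0.85. Cdsn (corneodesmosin) was at 15.7 and 61.1 CPM against 12.0 and 15.4 CPM in control at 25 DPI and Flg2, a filaggrin relative, at 1.03 and 16.5 CPM against 0.327 and 3.04 CPM. Both were highest in iDKO-labelled replicate 2, as were Lor, Flg, Tgm1, Hrnr and Rptn, and Alox12b and Sdr9c7. Other markers peaked elsewhere at 25 DPI: Ivl, Klk7 and Asprv1 in control replicate 1, Tgm3 in control replicate 2 and Casp14 in iDKO-labelled replicate 1. In pair 1 at 25 DPI 6 of the 12 markers were higher and 5 lower, with a median log2 ratio of 0.03, where Alox12b was at 1.70 and Sdr9c7 at 2.21. In pair 2 the markers had 10 higher and 2 lower, with a median of 2.02. The 52 DPI pairs had 9 markers higher and 3 lower (median 0.96) and 8 higher and 4 lower (0.93). Medians of the 4 linoleate oxidation genes there were 1.06 and -0.09. At 52 DPI Cdsn was at 34.5 and 23.5 CPM against 17.1 and 16.5 CPM in control, with its highest value in iDKO-labelled replicate 1. Flg, Hrnr, Alox12b and Sdr9c7 were also highest in that library. Flg2 was at 0.754 and 0.262 CPM against 1.04 and 3.45 CPM, and Lor was highest in control replicate 1. Ivl, Casp14, Klk7, Tgm1, Tgm3, Rptn and Asprv1 were highest in iDKO-labelled replicate 2, where Alox12b and Sdr9c7 were below their controls. The summed level of the 12 markers was 164 and 312 CPM in the iDKO-labelled libraries and 268 and 144 CPM in control at 25 DPI. At 52 DPI the sums were 245 and 621 CPM against 135 and 125 CPM in control, and 433 CPM of the sum in iDKO-labelled replicate 2 came from Klk7, a desquamation protease. The 8 basal keratinocyte markers had 0 higher and 8 lower at 52 DPI, with a median of -0.68 and medians of -0.25 in pair 1 and -1.03 in pair 2. At 25 DPI 6 of them were higher and 2 lower, with a median of 0.16. Markers of other cell types differed between the labels as well, though not always alike at both times or in both pairs, and their part was not tested. The 8 dermal fibroblast markers had 8 higher at 25 DPI, with a median of 1.25, and 7 at 52 DPI, with a median of 1.03. The pairs differed: in pair 1 they had 4 higher and 3 lower at 25 DPI (median 0.38) and 4 higher and 4 lower at 52 DPI (0.10). In pair 2 they had 8 higher at 25 DPI (1.42) and 6 higher and 2 lower at 52 DPI (1.92). They summed to 586 and 1206 CPM in the iDKO-labelled libraries and 349 and 638 CPM in control at 25 DPI, and to 1759.7 and 422 CPM against 1515 and 1264 CPM at 52 DPI. Most of these sums came from Postn alone, at 576 and 1043 CPM against 341 and 585 CPM in control at 25 DPI. Postn was at 1743 and 304 CPM against 1499 and 1247 CPM in control at 52 DPI. Dcn went the other way there, at 0.816 and 84.4 CPM against 1.93 and 0.627 CPM in control. The 8 T cell markers had 0 higher and 8 lower at 25 DPI, with a median of -1.72, and 8 higher at 52 DPI, with a median of 1.17. Their sums were 219 and 74.4 CPM against 749.6 and 110.2 CPM in control at 25 DPI and 283 and 439 CPM against 224 and 83.9 CPM at 52 DPI. The 5 Langerhans cell markers had 1 higher at 25 DPI and 5 at 52 DPI, where they summed to 1287 and 1110.0 CPM against 744 and 568 CPM in control.

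Of the last 4 genes, the acid lipase gene Lipn had the widest ratios and the fewest counts. It was at 0.798 and 0.980 CPM in the iDKO-labelled libraries and 0 and 0.457 CPM in control at 25 DPI, where control replicate 1 held 0 counts, and at 2.29 and 1.11 CPM against 0.593 and 0.940 CPM in control at 52 DPI. The groups did not overlap within either time. Fitted log2 values were 1.16 (SE 1.30) at 52 DPI and 1.82 (SE 1.34) at 25 DPI, where leaving out control replicate 1 gave 0.93. Lipk, a second lipase of the same cluster on chromosome 19, was at 1.82 and 2.69 CPM against 5.95 and 1.31 CPM in control at 25 DPI and at 3.05 and 3.92 CPM against 1.82 and 2.19 CPM in control at 52 DPI. Its highest value was again that of control replicate 1 at 25 DPI, without which the log2 fold change of -0.67 there became 0.76. Lipm, the third, had pair ratios between -0.24 and 0.16. Nipal4, a membrane protein of the granular layer whose loss causes ichthyosis in humans, was at 38.3 and 32.9 CPM against 20.8 and 29.1 CPM in control at 25 DPI, with no overlap, and at 37.8 and 44.0 CPM against 43.7 and 44.3 CPM in control at 52 DPI.

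Leaving out each library of a time in turn, 8 of the 32 genes stayed higher at 25 DPI (Abhd5, Alox12b, Cyp4f39, Lipn, Nipal4, Pnpla1, Sdr9c7 and Smpd1) and 0 stayed lower. At 52 DPI 8 stayed higher (Cers4, Cyp4f39, Degs2, Elovl7, Ephx3, Lipk, Lipn and Pnpla1) and 4 lower (Asah1, Nipal4, Psap and Sptlc3). Cyp4f39, Lipn and Pnpla1 were in the higher list at both times. No share of all tested genes is given beside these counts, so they describe the 32 genes alone. The difference between the genotype effects at 52 and 25 DPI was called for 0 of the 32 genes by edgeR, as for 0.0% of all tested genes, and the widest values were 2.25 (SE 1.53) for Degs2, 2.03 (SE 1.11) for Cers4 and -2.01 (SE 1.41) for Alox12b. With 1 library left out these ran from -0.48 to 3.11, from 0.57 to 2.72 and from -3.01 to -0.49, the values nearest 0, or past it, being those without control replicate 1 at 25 DPI for Degs2 and Cers4 and without iDKO-labelled replicate 2 at 25 DPI for Alox12b. At an unadjusted p under 0.05, 0 of the 32 differed in this test against 0.723% of all tested genes upward and 0.0561% downward, and DESeq2 called 0.

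Of 38 pathway genes outside the 32, 35 were tested, with 17 higher and 18 lower at 25 DPI and 23 higher and 12 lower at 52 DPI, and 0 called by edgeR. Of the 35, 4 were higher in all 4 pairs (Cers2, Elovl5, Gba2 and Pla2g2f) and 4 lower (Cert1, Hsd17b12, Ormdl1 and Tecr), against 6.73% and 6.7% of all tested genes, and those outside Cers2 and Elovl5 were named after their values were seen. Elovl5, an elongase of polyunsaturated fatty acids, was at 141 and 37.5 CPM in the iDKO-labelled libraries and 42.9 and 23.2 CPM in control at 25 DPI, and at 50.9 and 89.5 CPM against 38.8 and 31.0 CPM in control at 52 DPI. It was higher in all 4 pairs, with a log2 fold change across both times of 1.22 (SE 0.46) (edgeR, unadjusted p = 0.0291, adjusted p = 1.00), and DESeq2 with the replicate block called it (adjusted p = 0.0498). Cers2, the synthase for very long acyl chains, was at 66.0 and 65.7 CPM against 54.1 and 38.8 CPM in control at 25 DPI and at 73.7 and 59.6 CPM against 46.9 and 27.1 CPM in control at 52 DPI. It too was higher in all 4 pairs, with 0.68 (SE 0.30) across both times. The sphingomyelin phosphodiesterase relative Smpdl3b differed by -1.09 (SE 0.87) on the log2 scale at 25 DPI and the alkaline ceramidase gene Acer2 by 0.87 (SE 0.51) at 52 DPI. Of the 7 transcriptional regulators listed, 5 were higher at 25 DPI and 3 at 52 DPI, and Ppara, the fatty acid receptor, was lower in all 4 pairs with -0.40 (SE 0.28) across both times. Grhl3 and Ppard, both named after their values were seen, were higher in all 4 pairs. Grhl3, a transcription factor of the epidermal barrier, was at 74.3 and 102 CPM in the iDKO-labelled libraries and 69.5 and 62.9 CPM in control at 25 DPI. At 52 DPI it was at 81.9 and 84.9 CPM against 56.7 and 48.3 CPM in control. Its 4 iDKO-labelled libraries lay above all 4 control libraries, as did those of Cers2 and of 0.471% of all tested genes.

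Between times, Fa2h and Sptlc3 lay lower and Pnpla1 and Lipn higher at 52 DPI, with 0 of the 32 genes called by edgeR in control or in the iDKO-labelled libraries (0.0% of all tested genes in each), and 0 by DESeq2 (0.0785% in control, 0.0617% in the iDKO-labelled libraries). At an unadjusted p under 0.05 edgeR had Cers4 lower in control, against 0.998% of all tested genes, and 0 higher, against 0.51%. In the iDKO-labelled libraries it had 0 higher and 0 lower, against 1.18% and 0.493%. Without control replicate 1 at 25 DPI the log2 fold change of Cers4 in control was -0.72 in place of -2.21. Transcripts of the Y-linked gene Ddx3y had 0 counts in the 4 libraries at 52 DPI and 39.4 to 113 CPM at 25 DPI, and Xist, the RNA that silences an X, lay at 131 to 1139 CPM at 52 DPI and 0.119 to 0.342 CPM at 25 DPI. Time and sex therefore cannot be told apart in any comparison of 52 with 25 DPI. These comparisons also share their libraries with the genotype comparisons.

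**Figure D3:**
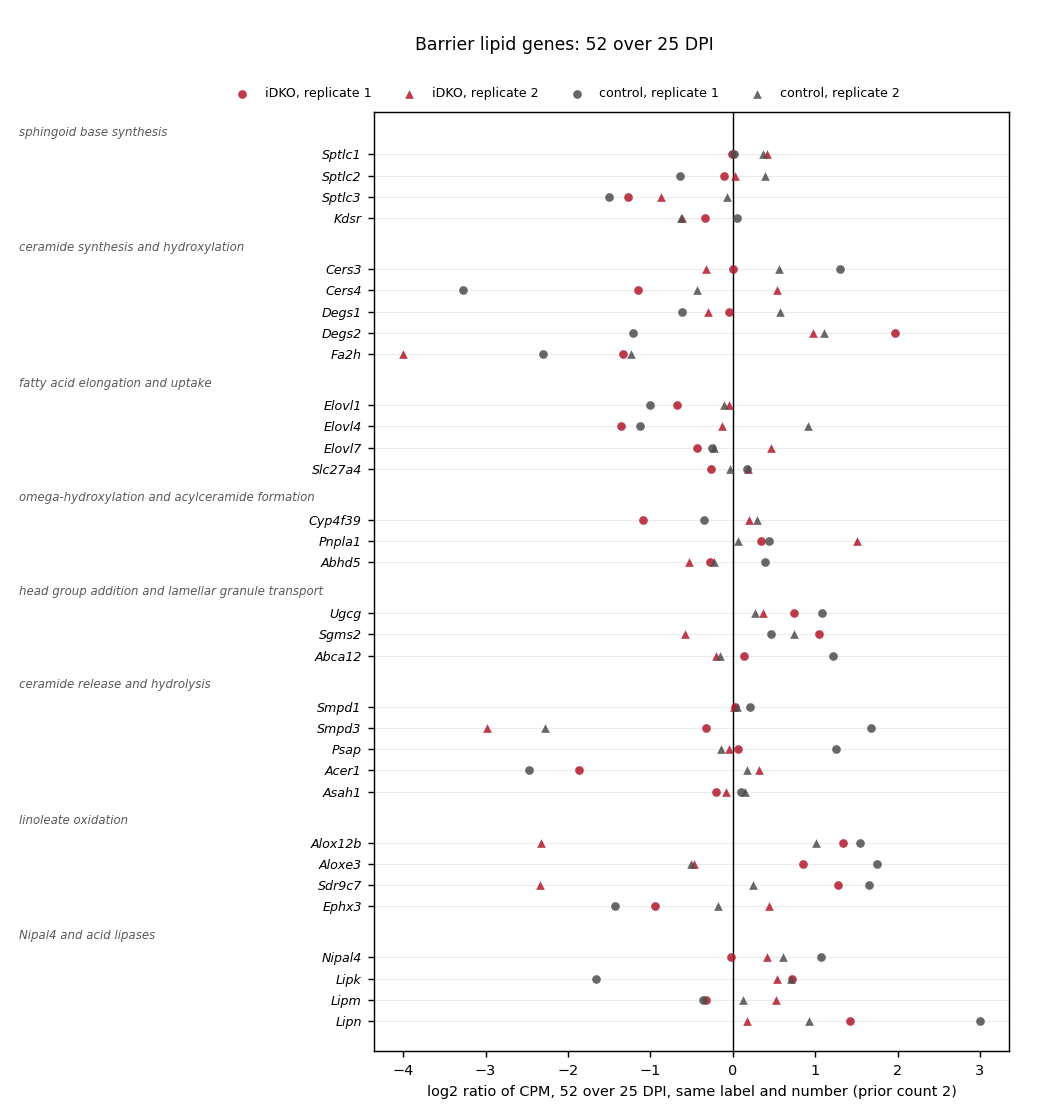
Log2 ratio of CPM of the 32 genes, 52 over 25 DPI, for each label and replicate number, grouped by pathway step. Fa2h lies left of 0 in all 4 comparisons and Pnpla1 right of 0 in all 4, while Acer1 and Elovl4 lie far left in replicate 1 alone.

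The plot of time ratios had 4 genes higher at 52 DPI in all 4 same-numbered comparisons (Lipn, Pnpla1, Smpd1 and Ugcg), against 8.53% of all tested genes, and 3 lower in all 4 (Elovl1, Fa2h and Sptlc3), against 9.61%. In the iDKO-labelled libraries 4 genes lay above their 25 DPI values without overlap (Degs2, Lipk, Lipn and Pnpla1; 11.6% of all tested genes) and 3 below (Abhd5, Fa2h and Sptlc3; 8.75%). In control 7 lay above (Alox12b, Lipn, Nipal4, Pnpla1, Sgms2, Sptlc1 and Ugcg; 11.0%) and 4 below (Cers4, Elovl7, Fa2h and Sptlc3; 9.7%). For Fa2h the log2 ratios of 52 over 25 DPI were -1.33 and -4.00 in the iDKO-labelled libraries and -2.31 and -1.23 in control. The fitted log2 fold changes were -1.91 (SE 0.99) in the iDKO-labelled libraries and -1.89 (SE 0.99) in control. Markers of the sebaceous gland, which also expresses Fa2h, were lower at 52 DPI as well, and their part was not tested. Elovl3, a sebaceous elongase gene, was at 1.66 and 0.196 CPM at 52 DPI and 21.8 and 3.74 CPM at 25 DPI in the iDKO-labelled libraries, and at 0.704 and 1.49 CPM at 52 DPI and 35.1 and 2.76 CPM at 25 DPI in control. The 9 sebaceous markers summed to 239.9 and 356 CPM at 52 DPI and 603 and 516 CPM at 25 DPI in the iDKO-labelled libraries, and to 167 and 323 CPM and 455 and 345 CPM in control. Sptlc3 had fitted log2 fold changes of -1.10 (SE 0.52) in the iDKO-labelled libraries and -0.82 (SE 0.52) in control, and Pnpla1 of 1.08 (SE 0.55) and 0.25 (SE 0.55).

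On the scale of CPM per kilobase of exon, the medians over 8 libraries ordered the 32 genes. Psap was the highest, with a median level of 229 CPM per kilobase (range 94.2 to 285), followed by Degs1 at 61.6, Elovl1 at 34.9 and Elovl4 at 30.2 CPM per kilobase. The ranges of Degs1 (33.4 to 105), Elovl1 (31.6 to 71.6) and Elovl4 (17.5 to 111) overlapped each other, and that of Degs1 overlapped that of Psap, so the order of these neighbours is not set. At the low end lay Lipk (1.11), Aloxe3 (1.04), Alox12b (0.487), Lipn (0.461) and Sdr9c7 (0.259 CPM per kilobase), whose ranges overlapped, above Smpd3. The genes with the largest fold changes at 25 DPI were thus among those with the lowest levels, and the lowest count of any library was 5 for Alox12b and 2 for Sdr9c7.

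**Figure D4:**
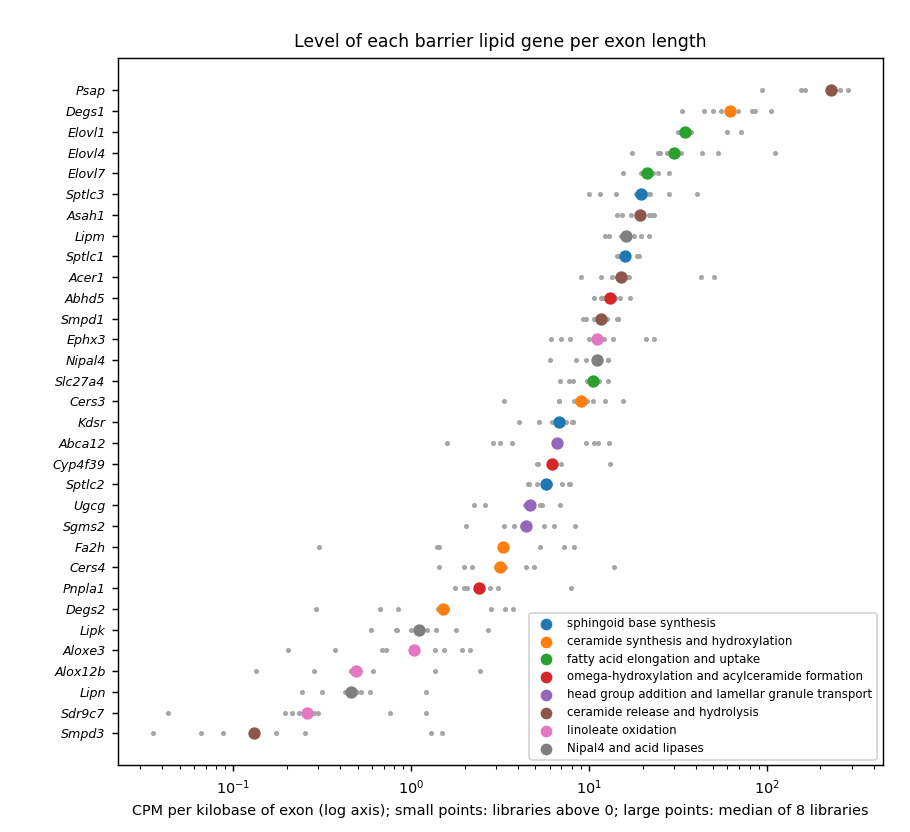
Level of each gene in CPM per kilobase of exon on a log axis, with small points for the libraries above 0 and large points for the median of 8, coloured by pathway step. Levels run from 229 for Psap to 0.131 for Smpd3, with Alox12b, Lipn and Sdr9c7 below 1.

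For most of the 32 genes, Abca12 and Aloxe3 among them, replicate numbers differed on average by more than labels did at either time. Psap was another, at 0.73 log2 units against at most 0.29 in size for the label, as was Ugcg, at 0.71 against 0.23. The label's largest difference exceeded this mean for others, such as Alox12b (2.78 against 0.50) and Pnpla1 (1.29 against 0.36). For both genes the differences between replicates had opposite signs, which cancel in the mean. For Alox12b they were 2.16 and -1.50 in the iDKO-labelled libraries at 25 and 52 DPI, and 0.92 and 0.39 in control. For Pnpla1 they ran from -0.22 to 1.34. Averaged over the 4 groups, replicate 2 exceeded replicate 1 by 2.03 log2 units for Abca12, the longest of the genes at 14808 bases of exon, and by 1.92 for Aloxe3. Over the 32 genes Spearman's rho between exon length and this difference was 0.45, and over 17836 tested genes it was 0.34, given as a description over genes that share the same 8 libraries.

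**Figure D5:**
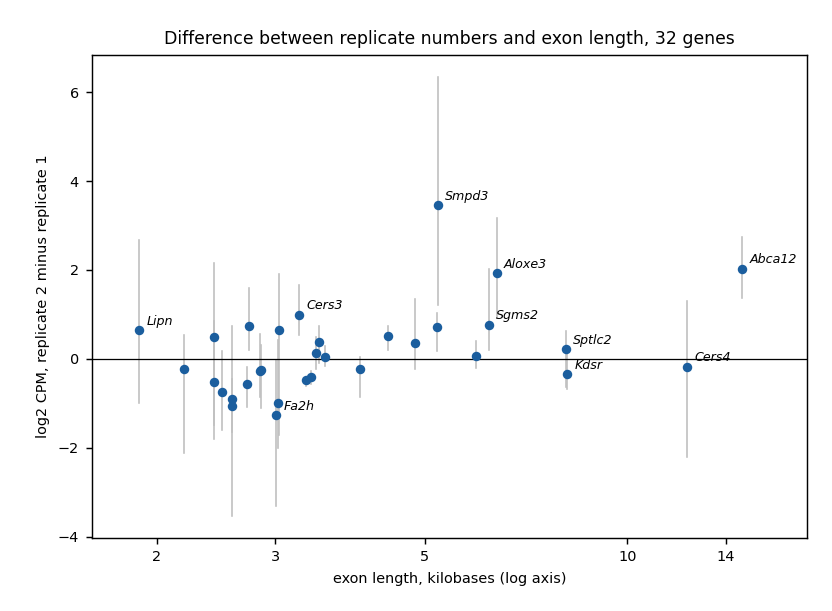
Difference in log2 CPM between replicate 2 and replicate 1 for the 32 genes against exon length in kilobases (log axis); points are means over the 4 groups and grey lines span the 4 groups. Abca12 and Aloxe3 lie above 0 and the long genes Cers4 and Kdsr just below it, and Smpd3, whose replicate 2 reads lie on the other strand, lies highest.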

How the data were processed

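RNA of trypsin-isolated mouse skin epidermis was extracted with Trizol and made into libraries with the SMART-seq v4 ultra low input kit, per the labels' protocols. The labels name this kit alone, although the strand shares differed between replicates 1 and 2. The sources used here do not explain that difference, so it is not known that all libraries were prepared alike. The authors deposited raw counts per gene and library in unstranded, first-strand and second-strand columns, and the unstranded counts were used. The submitters' processing notes name STAR 2.5.2a, FastQC 0.11.9, DESeq2 1.24.0 and Trimmomatic 0.35, with the builds GRCm38 and mm10; the annotation release is not given in the sources used here. Of 54838 gene IDs, 54723 matched a symbol in GENCODE on GRCm38, which also gave exon lengths, and 115 did not.

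The filter on low counts was filterByExpr, which kept 17839 genes. Libraries were scaled by TMM and all 8 were fitted together by edgeR 4.0.16 (limma 3.58.1, R 4.3.3), with 1 mean per group and 4 residual degrees of freedom, or time and genotype with 5, and Benjamini-Hochberg adjustment over all tested genes at a threshold of 0.05. The standard error is the log2 fold change divided by the root of F. Simulated data with known fold changes were used to check that the fit recovered their median size. The rate of false calls was not examined in them. Tables were handled with pandas 2.3.3 and drawn with matplotlib 3.10.9. Pair ratios use log2 CPM with a prior count of 2 and carry no test.

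Each group has a replicate 1 and a replicate 2 in the labels, and same-numbered libraries deviated together from their group means (r 0.395 to 0.793 over 17839 genes in 6 pairs of groups). With 2 libraries a group this does not show that animals were shared, so the replicate block is an alternative, beside DESeq2 1.42.0, other size factors, no filter, the second-strand column for replicate 2 and each library left out. The labels call the replicates biological and say no more of their origin. Depth was 9824307 to 50711381 counts per library, and 2 libraries a group limit the precision.

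The 32 genes, the other gene lists and the markers were chosen with earlier results of these data known. All 32 genes are named, and of 38 other pathway genes and 7 regulators those called or with the smallest unadjusted p in a genotype comparison. Ensembl IDs were matched to symbols, and promoter windows came from RefSeq on GRCm38.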

Additional observations from a re-analysis of the deposited data

Results flagged for a closer look

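For 5 of the 32 genes both pairs of libraries moved one way at 25 DPI and the other way at 52 DPI, as for 16.5% of all tested genes. Cers3, Nipal4 and Abhd5 were higher in the iDKO-labelled library of both pairs at 25 DPI and lower in both at 52 DPI, which is 9.38% of the 32, against 8.4% of all tested genes, with differences between the log2 fold changes at 52 and 25 DPI of -0.98, -0.62 and -0.47. Elovl1 and Acer1 were lower in both pairs at 25 DPI and higher in both at 52 DPI, 6.25% of the 32 against 8.06% of all tested genes, with differences of 0.23 and 0.38. The difference was tested by edgeR for each and called for 0 of the 5. Both shares lie near those of all tested genes, and some ratios were small, such as -0.01 for Elovl1 in pair 2 at 25 DPI. In pair 2 at 52 DPI the ratio was -0.03 for Abhd5 and -0.008 for Nipal4. With 1 library of a time left out, the fold changes of Cers3, Elovl1 and Acer1 changed sign at both times and that of Abhd5 at 52 DPI, and only Nipal4 among the 5 kept its direction at both.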

How the results depend on the processing

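With edgeR 0 genes were called in any of the 6 comparisons, and 0 to 0 when each library was left out in turn, with 0 also under other size factors, the second-strand column and a replicate block over both times. With the replicate block within time edgeR called 1 gene across both times and 0 elsewhere, and DESeq2 with that block called 103 at 25 DPI, 35 at 52 DPI, 73 across both times and 39 for the difference between times. Without the block DESeq2 called 2 at 25 DPI, 1 at 52 DPI, 8 across both times, 14 between times in control, 11 between times in the iDKO-labelled libraries and 0 for the difference. Without a filter on low counts edgeR called 8 at 25 DPI, 25 at 52 DPI, 16 across both times, 19 for the difference, 62 between times in control and 37 in the iDKO-labelled libraries. None of these settings called any of the 32 genes, and the cause of the differences was not tested. When each library of a time was left out in turn, the log2 fold changes of 8 of the 32 genes kept their direction at 25 DPI, and at 52 DPI 8 stayed higher and 4 lower, while those of the other genes changed sign. Leaving out 1 pair, chosen after seeing the data, gave 8 to 10 genes higher and 1 to 4 lower in every remaining pair, against 5 and 1 over all 4. The same 5 and 1 were counted with prior counts of 0.5 and 5. The counts with a library or a pair left out have no share of all tested genes beside them. A block within time could not be fitted for the comparisons between times. Alox12b, Sdr9c7 and Lipn rest on few counts, and with 2 libraries a group a p above the threshold does not show that values were alike.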
